A study of Homo sapiens with 6 samples.

Results

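The genes described here encode respiratory complex I: its nuclear-encoded subunits and the assembly factors that share the NDUF name. The members are all probe sets that the annotation of the Affymetrix human array assigns to a single gene symbol beginning with NDUFA, NDUFB, NDUFC, NDUFS or NDUFV. Antisense and divergent transcripts were left out. The rule took 78 of the 54675 probe sets, and these measured 41 of the 19775 genes that have a probe set of their own: 5 core subunits, 28 accessory subunits and 8 assembly factors. It uses no measured value. The array annotation pairs 7 further probe sets with several genes, among them all those for NDUFS8, NDUFC2 and NDUFS5, and these were not analysed here.

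RNA came from tumours of U87-EV, grown under the skin of female BALB/c SCID mice, which lack functional T and B cells. U87 is an established human glioblastoma line, and the labels do not say what EV stands for. Tumours of 150 to 200 mm3 were assigned to saline (control) or to bevacizumab, an antibody that binds human VEGF-A, at 10 mg/kg into the peritoneum every 3 days, until a diameter of roughly 15 to 30 mm. Each group has 3 arrays and started with 5 mice aged 6 to 8 weeks when implanted. Every tumour derives from the same line, implanted with Matrigel. The labels do not state that each array is a separate mouse, and all p-values rest on the variation among arrays, some of which may be technical.

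Complex I is the largest enzyme of the respiratory chain of the mitochondrial inner membrane. Its core subunits take electrons from NADH, pass them along flavin and iron-sulfur clusters to ubiquinone, and pump protons, while the accessory subunits surround and stabilise that core. Assembly factors build the complex in modules and are not part of the finished enzyme. The core is encoded partly in the nucleus and partly in mitochondrial DNA.

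Transcripts of complex I were on balance lower in the bevacizumab tumours, across all 3 classes. Of the 41 genes, 18 fell, none rose and 23 did not pass the test (limma, adjusted p under 0.05 over all 10233 genes tested). Over all genes tested, 9.97% fell and 9.09% rose. At an unadjusted limma p under 0.05, 27 members were lower and 0 higher, beside 3664 of all 10233 genes tested, both directions together. The median member was -0.35 on the log2 scale, bevacizumab minus control, which is a change of -21.3%, beside a median of -0.01 over all genes tested. The changes ranged from -1.07 for the assembly factor NDUFAF5 to 0.20 for the assembly factor NDUFAF7. In 29 members the 3 bevacizumab arrays all lay under the 3 control arrays and in none did they all lie above, where 22% of all genes tested were fully separated in the lower direction. Members were brighter than all genes tested (median control level 11.21 against 8.49) and had smaller errors (median SE 0.10 against 0.14). Genes with smaller errors pass and separate at smaller changes, and these shares were not matched for that. In bulk tumour RNA, fewer cells of a type and less RNA per cell cannot be told apart.

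The number of members that fell depended on single arrays. It was 3 without control 1, 3 without control 2, 4 without control 3 and 6 without bevacizumab 2, while the share of all genes that fell dropped to 2.69%, 2.56%, 3.69% and 4.94%. NDUFS7, NDUFA9 and NDUFAF5 passed in all 6 fits that left out 1 array. NDUFA12 did not pass without control 1 or 2, and the other 14 did not pass without any 1 of the 3 controls. No member fell with the ACTB 3' to 5' signal difference, a sign of RNA degradation, as a covariate. That setting left 11 lower genes in the whole table. It left 20 members lower at an unadjusted limma p under 0.05. All genes were not counted at that threshold in this fit, so the 20 cannot be set against a background. The ACTB difference was 1.38 ± 0.26 (SD, n = 3) in controls and 1.81 ± 0.16 in bevacizumab tumours (log2, two-sided exact permutation p = 0.2, where 0.1 is the smallest possible). The GAPDH difference was -0.12 ± 0.02 and -0.02 ± 0.03 (two-sided exact permutation p = 0.1). With the covariate the medians were -0.38 for core, -0.32 for accessory and -0.68 for assembly genes.

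**Figure D1:**
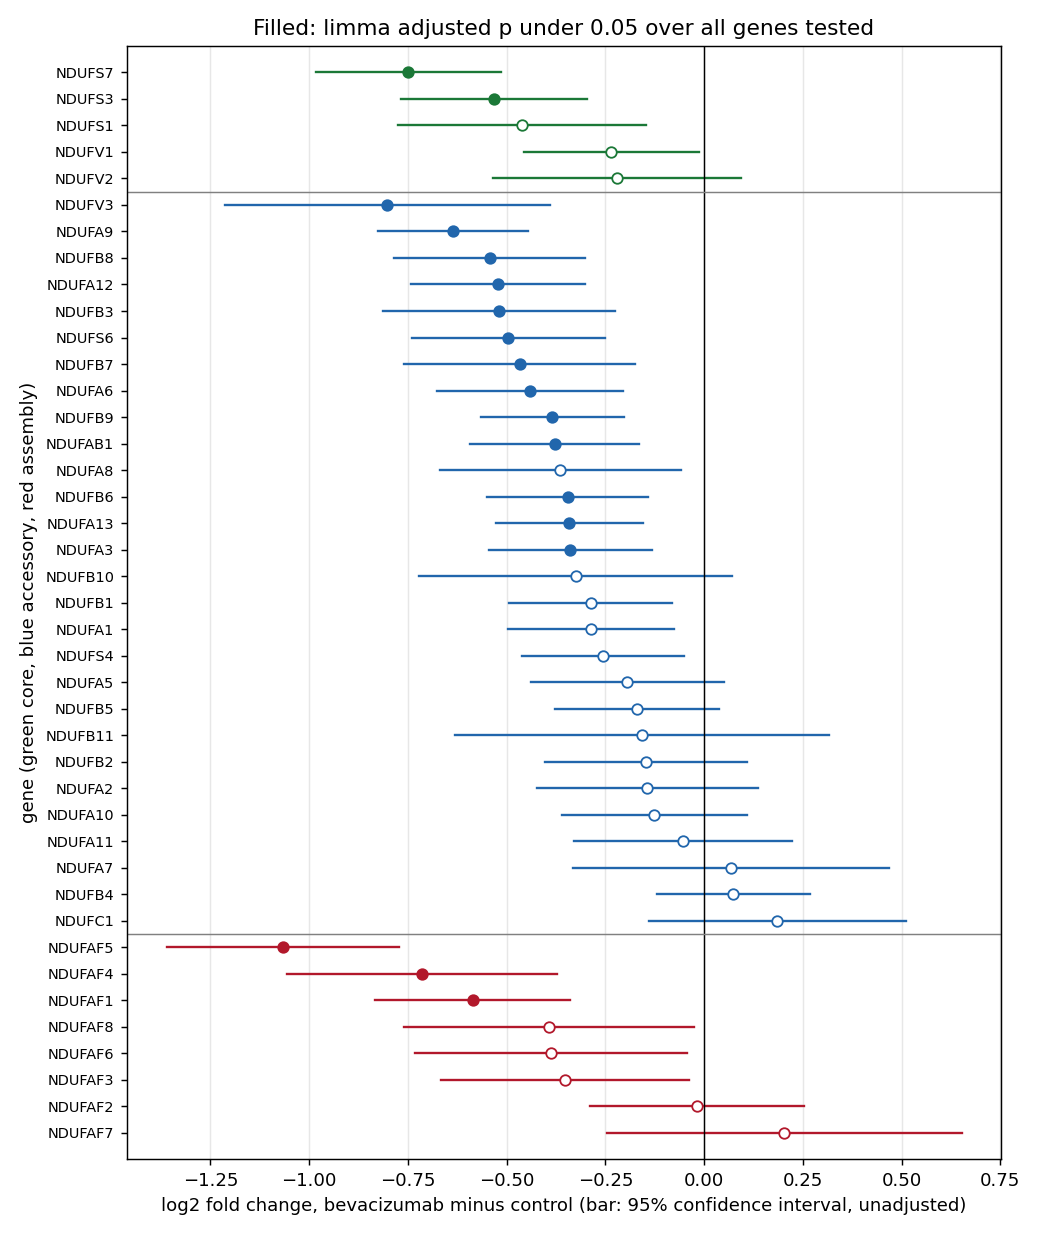
Log2 fold change of each complex I gene, bevacizumab minus control, with its unadjusted 95% confidence interval; colour marks core, accessory or assembly genes, and filled points passed the test. All 18 filled points lie left of 0, and the NDUFAF5 point lies farthest left at -1.07.

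Marker genes of the tumours' other cell types were examined. Those cells come from the mouse host. The probes are human but can also see mouse RNA, which was not separated. A dim marker therefore does not show that its cell type was absent, and the source of a bright one was not tested. VIM, CD44, TNC and IL13RA2, which U87 cells are known to express, were bright, whereas the glial markers GFAP and OLIG2 stayed under a log2 value of 4 on every array. Of the 6 tested genes in that list of 9, NES fell by 1.18 and CHI3L1 rose by 1.60 (limma adjusted p of 0.00725 and 0.0174), and the list's summed level was 16.01 to 16.05 in controls and 16.18 to 16.24 after bevacizumab. Of the markers of blood vessel endothelium 6 of 8 were under 4 on every array, as were 6 of 7 of macrophages, 7 of 8 of skeletal muscle and 6 of 6 of adipocytes. The summed levels were 7.31 to 7.42 in controls and 7.35 to 7.61 after bevacizumab for endothelium, 6.06 to 6.21 and 6.01 to 6.06 for macrophages, and 5.85 to 5.92 and 6.14 to 6.47 for muscle. The only muscle marker tested, TNNT3, rose by 1.07 (limma adjusted p = 0.00885). Adipocyte markers summed to about 4.86 in both groups. The 8 fibroblast markers summed to 16.01 to 16.12 in controls and 15.99 to 16.24 after bevacizumab, with 1 gene (DPT) higher. Of 8 mural markers 2 were under 4 on every array and 6 were tested. RGS5, ACTA2 and KCNJ8 fell, while PDGFRB (0.30), CNN1 (0.19) and CSPG4 (0.16) had a higher mean and did not pass. The mural sum was 13.02 to 13.38 in controls and 11.73 to 12.11 after bevacizumab. The part of these cell types in the complex I result was not tested.

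Promoter sequences are shown because members moved in the same direction. They are the 150 bases before the annotated start, from RefSeq on GRCh38.p14, written 5′ to 3′ on the gene's strand. Capitals mark a core motif of NRF1 (GCATGCGC) or of the ETS family, which includes GABP (CCGGAAG), on either strand; both factors are known regulators of nuclear genes for mitochondria. NDUFS7, NDUFS3, NDUFS6 and NDUFAF4 fell, and NDUFA1 is shown as a gene that did not pass. Each stretch shown holds a marked core, so these genes do not stand for the members at large.
NDUFS7, chr19:1383757-1383906, plus strand: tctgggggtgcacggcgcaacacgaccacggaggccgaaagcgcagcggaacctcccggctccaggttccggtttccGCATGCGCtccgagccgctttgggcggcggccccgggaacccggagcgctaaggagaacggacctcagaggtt
NDUFS3, chr11:47578924-47579073, plus strand: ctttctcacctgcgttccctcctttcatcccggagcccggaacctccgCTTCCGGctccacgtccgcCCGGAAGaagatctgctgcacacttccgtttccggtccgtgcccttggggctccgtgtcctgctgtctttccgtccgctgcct
NDUFS6, chr5:1801257-1801406, plus strand: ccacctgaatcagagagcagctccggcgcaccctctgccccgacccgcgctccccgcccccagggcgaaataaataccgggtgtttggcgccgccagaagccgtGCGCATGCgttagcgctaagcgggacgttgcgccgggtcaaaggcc
NDUFAF4, chr6:96897892-96898041, minus strand: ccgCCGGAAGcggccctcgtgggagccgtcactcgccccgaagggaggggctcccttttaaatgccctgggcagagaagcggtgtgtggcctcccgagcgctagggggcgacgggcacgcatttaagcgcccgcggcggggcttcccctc
NDUFA1, chrX:119871682-119871831, plus strand: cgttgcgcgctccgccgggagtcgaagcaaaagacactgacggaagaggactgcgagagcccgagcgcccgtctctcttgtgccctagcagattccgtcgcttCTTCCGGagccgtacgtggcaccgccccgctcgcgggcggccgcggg

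The shown stretches of NDUFS7 and NDUFS6 hold the NRF1 core, in opposite orientations, and that of NDUFS3 holds the ETS core on both strands. In a wider window, from 250 bases before to 50 after the start, 38 of the 41 members had 50 promoter entries. On both strands, the NRF1 core was in 16% of these entries against 3.05% of all 35116 promoters, the ETS core in 16% against 10.3%, and the YY1 core AAGATGGCG in 16% against 1.75%. By gene, 8 of the 38 members held the NRF1 core and 7 held the ETS core. The ETS and YY1 cores overlapped in 0 member entries. The estrogen-related receptor core TCAAGGTCA was in 0 of 50 member entries and in 0.353% of all promoters. The hypoxia-response cores were in 22% (ACGTG) and 50% (GCGTG) of member entries, against 21.4% and 36.5% of all promoters. Among genes that fell, 5 of 17 held the NRF1 core, 4 the ETS core and 4 the YY1 core, beside 3 of 21 for each core among those that did not pass. The ACGTG core was in 6 of 17 that fell and 4 of 21 that did not pass, and the GCGTG core in 8 of 17 and 15 of 21. A match is a run of letters and not a measured binding site.

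The core subunits carry the electron path, and 2 of the 5 measured fell (median -0.46, a change of -27.3%). All 5 had a lower mean after bevacizumab and 4 were fully separated between the groups. The largest core change was that of NDUFS7, which holds the last iron-sulfur cluster before ubiquinone. Its log2 values were 8.90, 8.73 and 8.75 in the controls and 8.04, 8.14 and 7.95 after bevacizumab. Every treated array lay well under every control array. The difference was -0.75 (SE 0.10, 95% interval -0.98 to -0.51), a 1.68-fold lower level, with limma's adjusted p = 0.00719.

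NDUFS3, a subunit next to NDUFS7 in the ubiquinone module, fell as well. It read 10.12, 10.06 and 10.11 in controls and 9.62, 9.66 and 9.41 in treated tumours, a difference of -0.53 (SE 0.10, limma adjusted p = 0.0174). The controls lay close together, and the treated array 3 was the lowest of the 6. NDUFS1, the subunit of the NADH-oxidising module with the most iron-sulfur clusters, read 10.23, 10.02 and 10.25 against 9.66, 9.54 and 9.92. Its groups did not overlap and all 3 of its tested probe sets had a lower mean. The difference of -0.46 (SE 0.13, 95% interval -0.77 to -0.15) did not pass limma's test at an adjusted p of 0.0556.

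The remaining core members sit at the NADH end of the peripheral arm and differed least between groups. NDUFV1, which binds NADH and the flavin, read 10.69, 10.56 and 10.62 in controls and 10.27, 10.45 and 10.44 after treatment. Its groups were separate, though the nearest arrays were close, and the difference of -0.23 (SE 0.09) had a limma adjusted p of 0.123. NDUFV2, an iron-sulfur partner of NDUFV1, read 11.35, 11.18 and 11.24 against 10.84, 11.01 and 11.26. Here the groups overlapped, since treated array 3 lay above controls 2 and 3. The 95% interval of its difference ran from -0.53 to 0.09.

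Among the accessory subunits 13 of 28 fell, none rose and 15 did not pass, with a median of -0.33 (a change of -20.5%). The mean was lower in 25 of them and the groups were separate in 19. By family, those that fell were 6 of 13 NDUFA genes (median -0.34), 5 of 11 NDUFB genes of the membrane arm (median -0.33), and 2 of the 4 accessory genes named NDUFC, NDUFS or NDUFV (median -0.38). Without control 1, control 2 or control 3 the accessory count fell to 1, 1 and 2, and it was 8 without bevacizumab 1, 2 without bevacizumab 2 and 8 without bevacizumab 3.

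The largest accessory change was in NDUFV3, a subunit of the NADH-oxidising module known for tissue-dependent isoforms. It read 9.73, 9.68 and 9.82 in controls and 8.66, 8.88 and 9.29 after treatment. All treated arrays lay under the controls, but they spread widely (SD 0.32 against 0.07). The difference was -0.80 (SE 0.17, limma adjusted p = 0.0259), and a second probe set of the gene gave -0.33 without passing.

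NDUFA9, which binds NADPH near the joint of both arms of the enzyme, was next in size. It read 10.08, 10.15 and 10.10 in controls and 9.45, 9.53 and 9.43 in treated tumours. Both groups varied little, with SDs of 0.03 and 0.05. The difference was -0.64 (SE 0.08, 1.55-fold lower, limma adjusted p = 0.00666).

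NDUFB8, a membrane-arm subunit often used as a blotting marker of assembled complex I, read 12.19, 12.24 and 12.32 against 11.86, 11.61 and 11.66. The groups did not overlap, and its other tested probe set also fell. The differences were -0.54 and -0.77, both past limma's threshold. NDUFA12, joined late to the peripheral arm, read 11.58, 11.62 and 11.52 against 10.98, 11.17 and 11.01. Its controls all lay above its treated arrays, and the difference was -0.52 (SE 0.09, limma adjusted p = 0.0152).

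NDUFB3, a small membrane-arm subunit, read 11.17, 11.42 and 11.42 against 10.97, 10.83 and 10.66, with control 1 nearest to the treated arrays. NDUFS6, a zinc-binding subunit of the peripheral arm, read 11.40, 11.43 and 11.53 against 11.07, 10.99 and 10.81. Both were separate between groups. Their differences were -0.52 (SE 0.12, limma adjusted p = 0.0341) and -0.50 (SE 0.10, limma adjusted p = 0.0233).

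The other 7 accessory genes that fell changed by less. NDUFB7, with cysteine motifs that place it in the intermembrane space, fell by 0.47 on the log2 scale, and NDUFA6, which docks the acyl carrier protein, fell by 0.44. A second probe set of NDUFA6 gave -0.18 without passing. NDUFAB1, that acyl carrier protein, fell by 0.38, as did NDUFB9, another docking subunit. NDUFB6 of the membrane arm, NDUFA13, also known as GRIM-19, and NDUFA3 fell by between 0.34 and 0.35. None of NDUFA3, NDUFA13, NDUFB6 and NDUFB7 passed in any of the 6 fits that left out 1 array.

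Of the 15 accessory genes that did not pass, 12 had a lower mean and 6 were separate between groups. NDUFA1, an X-linked subunit of the membrane arm, had a difference of -0.29 (limma adjusted p = 0.0669), and NDUFS4, needed for late assembly, had -0.26 (limma adjusted p = 0.0838). NDUFB11, also X-linked, read 11.62, 11.36 and 11.24 in controls and 10.91, 11.58 and 11.26 after treatment, so that its groups mixed.

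The 3 accessory genes with a higher mean were NDUFC1, NDUFB4 and NDUFA7, and none passed. NDUFC1, a small membrane-arm subunit, read 12.08, 12.00 and 12.03 in controls and 11.95, 12.37 and 12.35 after treatment. Treated array 1 lay under the controls while the other two lay above, and a second probe set of the gene had a lower mean. The difference was 0.19 (SE 0.13, limma adjusted p = 0.359). NDUFB4, of the membrane arm, read 12.98, 12.91 and 12.99 against 12.99, 13.02 and 13.09, and NDUFA7, of the peripheral arm, read 8.79, 8.70 and 9.07 against 8.67, 8.92 and 9.17. Their groups overlapped, with differences of 0.07 in both (limma adjusted p of 0.539 and 0.793).

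Of the 8 assembly factors 3 fell, none rose, and the median was -0.39 (a change of -23.7%). NDUFAF5, which hydroxylates an arginine of the core subunit NDUFS7, read 7.33, 7.60 and 7.70 in controls and 6.55, 6.48 and 6.39 after treatment. The treated arrays were tightly grouped under all controls. The difference was -1.07 (SE 0.12, 95% interval -1.36 to -0.77), a 2.09-fold lower level, with limma's adjusted p = 0.00559. A second, dimmer probe set of the gene also fell, by 1.01, although all its treated arrays were under 4.

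NDUFAF4, which works on the ubiquinone module together with NDUFAF3, read 9.76, 9.51 and 9.80 against 8.74, 9.08 and 9.12. The groups were separate, with treated array 1 lowest. The difference was -0.71 (SE 0.14, limma adjusted p = 0.022). A second, dimmer probe set gave -0.30 with overlapping groups and did not pass (limma adjusted p = 0.278). Its partner NDUFAF3 read 8.83, 8.73 and 9.14 against 8.49, 8.65 and 8.52, a difference of -0.35 (SE 0.13) that did not pass (limma adjusted p = 0.109), although the groups were separate.

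NDUFAF1, a factor for assembly of the membrane arm, read 8.67, 8.56 and 8.69 in controls and 8.17, 8.08 and 7.91 after treatment. All treated arrays lay under the controls, and the difference was -0.59 (SE 0.10, limma adjusted p = 0.0152). NDUFAF6 and NDUFAF8, which acts with NDUFAF5, did not pass although neither overlapped. NDUFAF8 read 11.03, 11.10 and 11.49 against 10.89, 10.91 and 10.66, a difference of -0.39 (SE 0.15, limma adjusted p = 0.121). NDUFAF6 read 9.19, 9.46 and 9.70 against 9.12, 9.01 and 9.05, also -0.39 (SE 0.14, limma adjusted p = 0.107). In both genes control 3 was the highest array and stood farthest from the treated ones.

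The other 2 assembly factors showed little difference. NDUFAF2, a paralogue of NDUFA12 that assists late assembly, read 10.52, 10.64 and 10.67 against 10.50, 10.49 and 10.78 (difference -0.02, SE 0.11, limma adjusted p = 0.923). NDUFAF7, a mitochondrial methyltransferase, read 8.83, 8.93 and 9.28 against 9.52, 9.15 and 8.98. Both overlapped between groups. For NDUFAF7 the 3 tested probe sets gave 0.20, 0.08 and -0.15, and none passed.

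**Figure D2:**
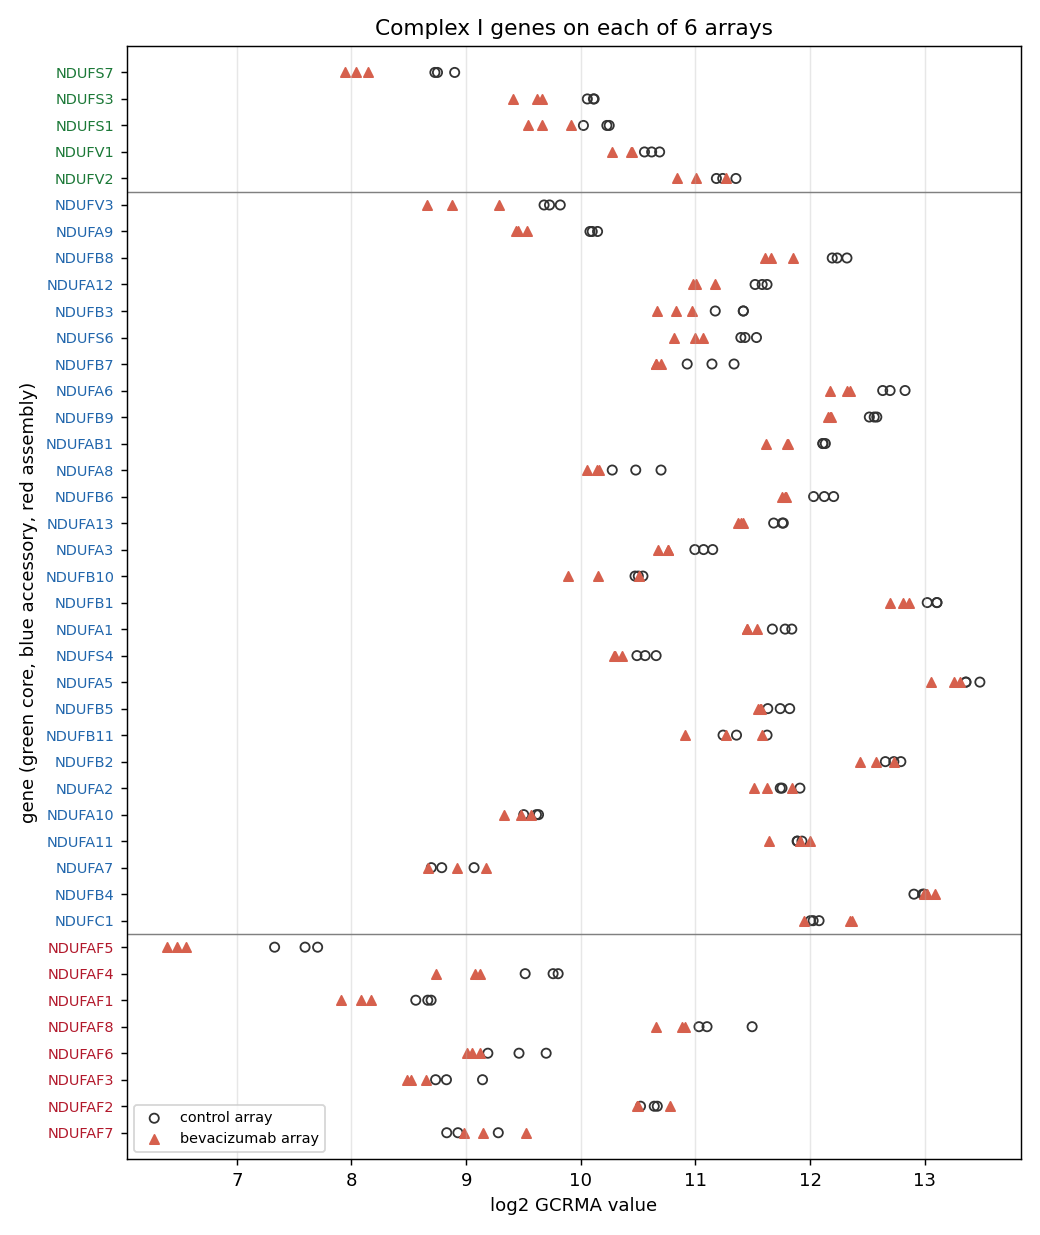
Log2 GCRMA value of each complex I gene on each of the 6 arrays, 3 control and 3 bevacizumab, with 1 row per gene. In 29 genes every control point lies to the right of every bevacizumab point, among them NDUFAF5, NDUFS7 and NDUFA9.

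For the median member, arrays of a group differed less than the groups did. The median deviation of the 41 members from their control mean was -0.01, -0.04 and 0.05 on the controls and -0.38, -0.31 and -0.34 on the treated arrays. Control 3 was the highest of the 6 arrays for 20 members and control 1 for 12. Bevacizumab 1 was the lowest for 19 members, bevacizumab 3 for 11 and bevacizumab 2 for 9. On the treated arrays the core median was -0.48, -0.43 and -0.25, the accessory median -0.37, -0.31 and -0.32, and the assembly median -0.37, -0.37 and -0.47. On the controls the core median was 0.07, -0.07 and -0.002, and the accessory median -0.01, -0.02 and 0.03. The assembly median spread more widely there, at -0.13, -0.08 and 0.20. The 3 classes overlapped, and no test set them against each other.

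**Figure D3:**
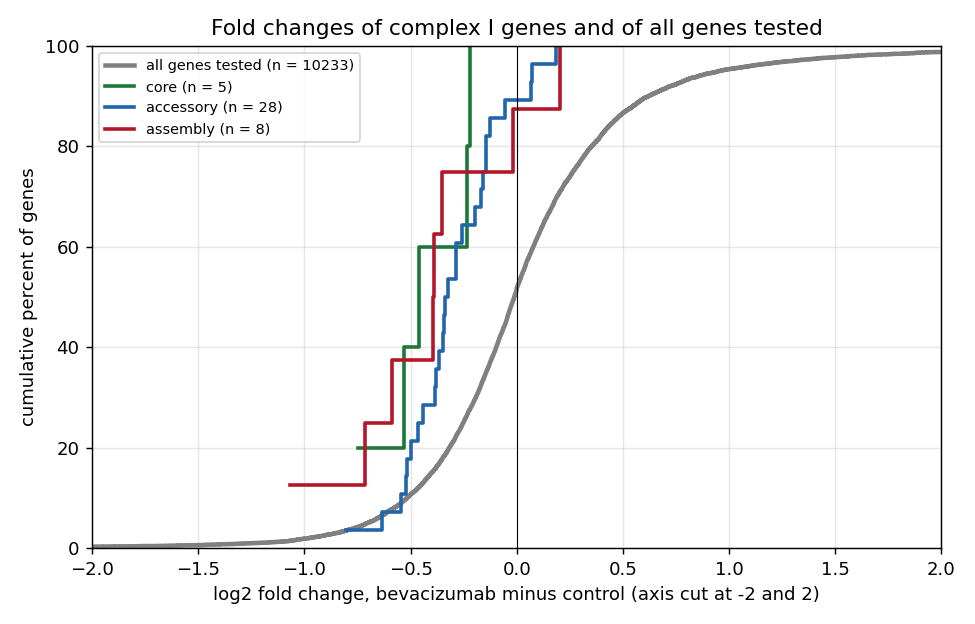
Cumulative percent of genes by log2 fold change (horizontal axis cut at -2 and 2), for the complex I classes and for all genes tested. The curves of core, accessory and assembly genes cross their medians at -0.46, -0.33 and -0.39, while that of all genes crosses at -0.01.

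Each probe set was also tested on its own. Of the 78 member probe sets, 55 were bright enough to test. In 50 of these the mean was lower after bevacizumab, 18 fell and none rose, beside 7.96% of all 18475 probe sets tested that fell. The genes behind the 18 were 16 of the 18 that fell in the gene test, NDUFA3 and NDUFB7 being the exceptions. This overlap is no separate check, since the 55 include the probe set that represented each gene. Among the further tested probe sets, only those of NDUFAF5 and NDUFB8 passed. In 9 of 11 genes with several tested probe sets, all pointed the same way, the exceptions being NDUFC1 and NDUFAF7. Averaging all probe sets of a gene, dim ones included, made the difference smaller for NDUFAF5 (-0.69), NDUFS7 (-0.37), NDUFB8 (-0.31) and NDUFB6 (-0.17). NDUFB6 and NDUFA6 no longer passed. Array probes can also detect near-identical processed pseudogenes: the reference gene table lists at least 1 for 20 of the 41 members, with 12 each for NDUFA5 and NDUFB4, so the values of those genes are less certain.

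Some genes for other parts of the respiratory chain fell too. Other factors known to assemble complex I had a lower mean in 11 of 12 genes (median -0.20), of which 2 fell and 9 did not pass: AIFM1, a flavoprotein needed for import of intermembrane-space subunits, at -1.05 (limma adjusted p = 0.00609), and TMEM186 at -0.51 (limma adjusted p = 0.0416), which did not pass in any of the 6 fits that left out 1 array. Of 34 tested subunits of complexes II to V, 13 fell, none rose and 21 did not pass (median -0.31). ATP5ME of ATP synthase had every treated array above every control, by 0.23 in mean, without passing; it was picked out after its values were seen. The median was -0.32 in complex II (1 of 3 fell), -0.30 in complex III (2 of 7), -0.29 in complex IV (4 of 10) and -0.35 in ATP synthase (6 of 14). UQCRC2, a core protein of complex III, fell by 0.68, and ATP5F1A, the alpha subunit of ATP synthase, fell by 0.64. ATP5F1A did not pass without control 1, 2 or 3.

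Of the complex I subunits encoded in mitochondrial DNA 3 of 7 were measured, and none passed the test. ND2 read 14.87, 14.75 and 14.56 in controls and 14.67, 14.93 and 14.96 after treatment, and ND4 read 15.48, 15.42 and 15.36 against 15.42, 15.49 and 15.40, near the top of the array's range. Both overlapped between groups. ND6 read 9.88, 9.73 and 10.07 against 10.14, 8.77 and 9.70, where treated array 2 alone lay far down. The limma adjusted p-values were 0.518, 0.921 and 0.482, and the difference between these genes and the nuclear ones was not tested.

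**Figure D4:**
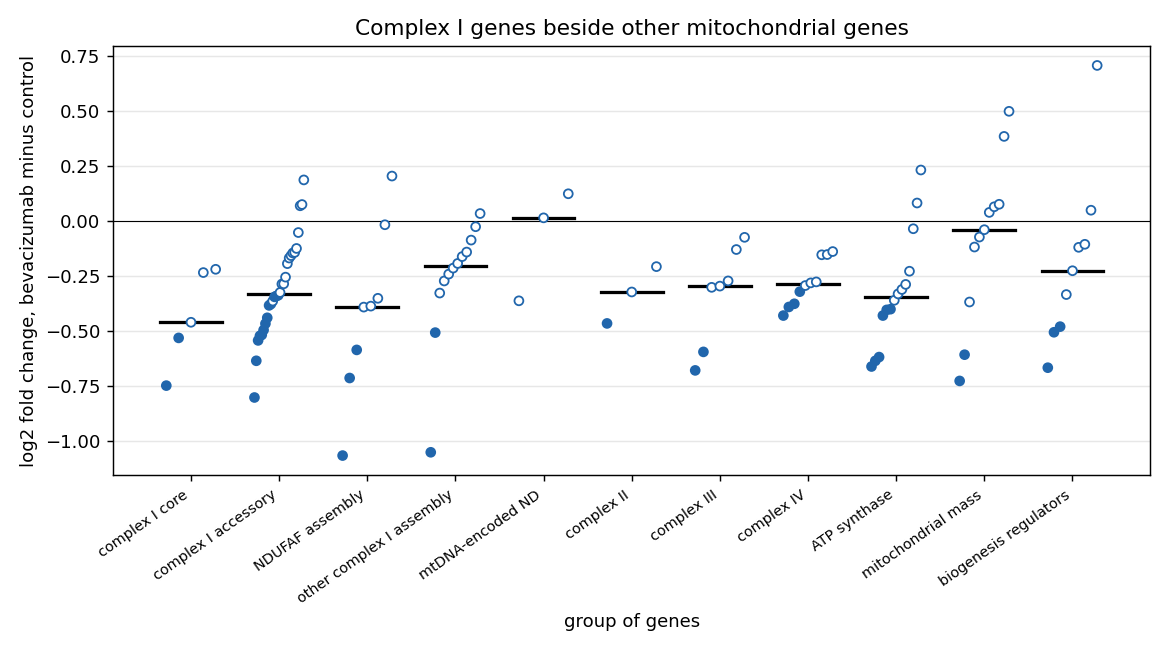
Log2 fold change of each tested gene, bevacizumab minus control, for the complex I classes and for other groups of mitochondrial genes; each point is 1 gene and the bar of each group is its median. Subunits of complexes II to V have a median of -0.31, and the 3 genes of mitochondrial DNA have a median of 0.01.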

How the data were processed

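Each of 6 RNA samples was measured on 1 one-colour Affymetrix array, and whether each came from a separate tumour is not stated. The deposited values are log2 expression values made by the authors with GCRMA, after GCOS 1.1.1.052, per the submitters' processing notes; GCRMA subtracts a sequence-dependent background, equalises the arrays and combines the probes of a set. The log2 scale was inferred from the values and from GCRMA's usual output. Array medians lay between 2.49 and 2.51, 33.3% to 34.3% of probe sets sat at the lowest value, and precision is limited by having 3 arrays a group. Neither dates nor batches of the arrays were found in the labels.

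Of the 54675 probe sets, 41097 have 1 gene in the platform annotation, 1801 have several and 11777 are not listed or unnamed; 41043 matched the reference gene table by identifier. A gene's brightest probe set (by mean over 6 arrays) represented it, and genes with a mean of at least 4 were tested (10233 tested, 9542 left out). All 41 members were tested. The comparison used limma 3.58.1 (R 4.3.3; lmFit, eBayes, no covariate), two-sided, with Benjamini-Hochberg adjustment over all genes tested. Differences are bevacizumab minus control, errors are SDs over 3 arrays unless called SE, and "fell" or "rose" means an adjusted p under 0.05. Summed marker levels are log2 of the sum of the linear values. The members, lists and tests were chosen with earlier results of these data known. Full values are given for core genes, assembly factors, and the 6 lowest and 3 highest accessory changes, and of other lists at most 4 genes with the smallest p; further members are named beside these as examples, NDUFB11 for its mixed groups. The fit was tested on simulated data. Alternatives were other filters, the mean of probe sets, renewed quantile normalization, a floor of 4, the ACTB covariate, a prior variance with trend, a replicate block and leaving out each array.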

Additional observations from a re-analysis of the deposited data

How the results depend on the processing

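The number of complex I genes past the threshold varied more than their direction, which several alternatives could not change. Between 34 and 38 of the 41 members had a negative difference under every alternative run, beside 5285 of all 10233 genes in the main fit. The filters, the replicate block, the floor of 4 and the prior variance with trend left the members' differences as they were. Fits that left out 1 array shared all their arrays with the main fit. The steadiness of direction was therefore partly fixed in advance. A filter at a mean of 6, renewed quantile normalization, a floor of 4 and a prior variance with trend kept all 18 members that fell, and the mean of all probe sets kept 16. With no filter 6 members fell (1 core, 4 accessory, 1 assembly), beside 331 lower (1.67%) and 267 higher of the 19775 genes then tested. With the replicate block 4 members fell (1 core, 2 accessory, 1 assembly), beside 336 lower (3.28%) and 568 higher of all genes. Over all genes tested, same-numbered arrays did not deviate together (correlations of -0.05, -0.01 and -0.05). With 3 arrays a group, these correlations cannot exclude a pairing by number that acts on part of the genes. With the ACTB covariate 0 members fell in limma (0 core, 0 accessory, 0 assembly), beside 11 lower (0.107%) and 13 higher of all genes. In that fit 20 members were lower at an unadjusted limma p under 0.05, a count without a background, since all genes were not counted. The assembly median was -0.68. The mean of all probe sets moved the core median to -0.29.

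Leaving out 1 array gave 3 to 14 members that fell (core 1 to 3, accessory 1 to 8, assembly 1 to 3). Of all genes, 262 to 934 were lower (2.56% to 9.13%) and 296 to 1140 higher in those fits. Signs turned in genes that had not passed. With the ACTB covariate the differences were 0.036 for NDUFA11, 0.013 for NDUFAF2, -0.26 for NDUFAF7 and 0.14 for NDUFB11. With the mean of all probe sets they were 0.077 for NDUFA5, -0.033 for NDUFA7 and 0.10 for NDUFS4. Leaving out 1 array gave -0.13 to 0.052 for NDUFA11, -0.058 to 0.19 for NDUFA7, -0.11 to 0.032 for NDUFAF2, -0.32 to 0.013 for NDUFB11, -0.66 to 0.021 for ND6 and -0.016 to 0.045 for ND4. The cause of these changes was not tested.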

Other observations

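Among genes that mark mitochondrial mass, 2 of 11 fell, the others did not pass, and the median was -0.04. The inner-membrane scaffold PHB1 changed from 11.05 ± 0.06 to 10.32 ± 0.16 (SD, n = 3; -0.73, limma adjusted p = 0.00978), or -0.47 with the mean of its probe sets. The matrix chaperonin HSPE1 fell by 0.61, but did not pass without control 1, 2 or 3 or bevacizumab 2 (limma adjusted p of 0.0547, 0.0774, 0.0669 and 0.0504). The protease LONP1 (0.50) and the import receptor TOMM20 (0.38) had every treated array above every control and did not pass; they were named after their values were seen. Among regulators of mitochondrial gene expression 3 of 9 tested fell and none rose. These were TFAM, which packages and transcribes mitochondrial DNA, at -0.67 (limma adjusted p = 0.0177), and the mitochondrial transcription factors TFB2M at -0.51 and TFB1M at -0.48. TFAM did not pass without control 1, 2 or 3 or without bevacizumab 2 (limma adjusted p of 0.0547, 0.066, 0.0585 and 0.0544). TFB2M did not pass without those same arrays and TFB1M passed without bevacizumab 1 and in no other such fit; with the mean of all probe sets the differences were -0.13 and -0.24, and neither passed. POLRMT, the mitochondrial RNA polymerase, had the largest change in size among the 9 tested, 0.71 (6.78 ± 0.01 to 7.48 ± 0.43), with every treated array above every control, and did not pass (limma adjusted p = 0.0659). The coactivators PPARGC1A and PPARGC1B were under 4 on every array, so neither was tested.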
